A study of Rattus norvegicus with 8 samples.

Results

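The genes examined make cholesterol from isoprenoid precursors, together with Insig1, a sterol-sensing regulator of that pathway, in the livers of rats given D3T or vehicle. They were chosen by name, with earlier results of these data known. Every probe set whose platform annotation gives 1 of 9 listed symbols was taken (a probe set is the group of oligonucleotides on an array that reports 1 transcript). Of the 9 genes, 8 were matched, by 22 of the 8740 non-control probe sets, and no probe set was matched here to Hmgcs1, which is not described. The 8 genes are Idi1, Fdps, Fdft1, Sqle, Lss, Cyp51, Msmo1 and Insig1, out of 4736 genes named on the array.

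Total RNA from snap-frozen liver of 8 male Fischer 344 rats was measured on Affymetrix rat U34 arrays (version A), 1 array per rat. In the D3T group 4 rats received D3T (3H-1, 2-dithiole-3-thione), a sulfur compound known as an inducer of detoxification enzymes, by gavage at 0.3 mmol per kg body weight in saturated sucrose on days 1, 3 and 5. In the vehicle group 4 rats received 0.2 ml of saturated sucrose, on the same days for replicates 1, 3 and 4, while the label of vehicle replicate 2 names no days. Both groups ate AIN 76A chow, and the labels give the age of all 8 rats as 6 without a unit. The interval between the last dose and sampling is not given in the sources used here.

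The liver is a main site of cholesterol synthesis. Idi1 isomerises the activated isoprene unit, Fdps joins such units to farnesyl diphosphate, Fdft1 condenses that product to squalene, Sqle and Lss oxidise and fold squalene to lanosterol, and Cyp51 and Msmo1 strip methyl groups from it on the way to cholesterol. Transcription of these genes is driven by SREBP factors, which are activated when membrane sterol is low. The Insig1 protein holds the SREBP complex in the endoplasmic reticulum when sterol is plentiful, and Insig1 is itself an SREBP target.

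Because SREBP is known to act beside the CCAAT-binding factor NF-Y at such genes, 4 promoters are shown, all of genes with at least 1 probe set that fell. Cyp51, whose 2 brightest probe sets fell, is included as a window that holds no CCAAT. The windows of Idi1 and Lss, genes with no probe set past the threshold, hold CCAAT and are not printed. Any part of these letters in the changes was not tested. Each is the 250 bases before the annotated start, from RefSeq's rat build GRCr8, 5′ to 3′ on the gene's strand, with CCAAT or its reverse complement ATTGG in capitals. Insig1 lies at chr4:8057770-8058019 (minus strand), Msmo1 at chr16:29746863-29747112 (plus strand), Fdps at chr2:176804817-176805066 (minus strand) and Cyp51 at chr4:30991443-30991692 (plus strand).
Insig1: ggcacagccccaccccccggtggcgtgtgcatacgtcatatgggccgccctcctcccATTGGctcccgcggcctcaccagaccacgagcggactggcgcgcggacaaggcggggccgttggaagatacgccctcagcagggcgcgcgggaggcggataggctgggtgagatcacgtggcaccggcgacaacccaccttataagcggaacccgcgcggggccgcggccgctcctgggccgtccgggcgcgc
Msmo1: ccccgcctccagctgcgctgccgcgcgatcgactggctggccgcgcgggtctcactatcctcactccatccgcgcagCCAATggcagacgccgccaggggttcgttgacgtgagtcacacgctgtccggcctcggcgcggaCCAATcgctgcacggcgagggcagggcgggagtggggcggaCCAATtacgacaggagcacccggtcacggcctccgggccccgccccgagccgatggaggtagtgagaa
Fdps: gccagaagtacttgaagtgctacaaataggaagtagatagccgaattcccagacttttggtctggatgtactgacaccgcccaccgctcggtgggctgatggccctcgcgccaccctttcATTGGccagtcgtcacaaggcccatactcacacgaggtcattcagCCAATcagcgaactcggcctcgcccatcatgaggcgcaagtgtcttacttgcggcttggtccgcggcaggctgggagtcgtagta
Cyp51: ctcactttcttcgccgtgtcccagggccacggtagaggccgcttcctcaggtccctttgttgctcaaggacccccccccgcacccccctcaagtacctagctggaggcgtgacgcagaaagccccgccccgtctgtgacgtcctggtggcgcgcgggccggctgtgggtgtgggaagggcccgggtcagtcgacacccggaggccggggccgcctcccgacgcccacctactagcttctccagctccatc

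Promoters were matched for 6 of the 8 genes, these 4 and those of Idi1 and Lss. CCAAT, searched on both strands, was found in 5 of the 6, in all but Cyp51, and in 34.0% of the 33469 promoter windows of the same length in the table. Msmo1 held 3 copies, Fdps and Idi1 2 each and Insig1 and Lss 1 each. GGGCGG, the GC box, was found in 5 of the 6, in all but Idi1, against 30.5% of windows. The E-box CACGTG was found in Insig1 alone, 79 bases before the start, against 5.59% of windows. TCACNCCAC, a core of the sterol regulatory element, was in none of the 6 windows and in 0.974% of all windows. These are matches of letters in a fixed window and not sites of binding. They do not overlap one another in these promoters apart from CACGTG, which reads the same on both strands.

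All 8 genes had lower mean signals after D3T, and 5 of them fell with at least 1 probe set (Fdps, Sqle, Cyp51, Msmo1 and Insig1). The largest falls were those of Sqle, to 19.8% of the vehicle level, and Insig1, to 22.2%, and the smallest difference was that of Lss, at 81.7%. The test was limma across 5244 probe sets, with Benjamini-Hochberg adjusted p under 0.05 as the threshold. It reads log2 signals, raised to a floor where they were very low, so folds near the floor are understated. Of the 22 probe sets 20 passed the filter on low signal, and of these 9 were lower and 0 higher, a share of 45%, where 6.48% of all tested probe sets were lower. At an unadjusted p under 0.05 there were 14 lower and 0 higher, and no share of all tested probe sets at that threshold is given here. For 11 of the 20 (55%), every D3T array lay below every vehicle array, against 11.3% of all tested probe sets. All 20 had a negative log2 fold change, as had 2556 of all 5244. The median of the 20 was -0.75, where the median of all tested probe sets was 0.02. With the brightest probe set standing for each gene, 4 of 8 genes fell, where 5.84% of 3150 genes were lower and 3.71% higher. Since the genes were chosen with earlier results of these data known, these shares describe them and are no independent test.

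The 3'/5' signal ratio of the beta-actin control probes, a measure of RNA quality that rises as RNA breaks down, ran from 1.45 to 1.59 in vehicle and from 1.17 to 1.47 after D3T (exact two-sided permutation p = 0.0571, smallest possible 0.0286). With this ratio as a covariate, 0 of the 20 member probe sets passed (limma, adjusted p from 0.0774 to 0.992), while their median log2 fold change was -0.85, against -0.75 without it. With it 11 of the 5244 probe sets were lower (24 higher), and their median log2 fold change was -0.01. Of the member probe sets 14 had an unadjusted p under 0.05, and 19 of 20 log2 fold changes were negative. The shares of all 5244 by those 2 measures in this fit are not given here, so these member counts have no background beside them. For the GAPDH control probes the 3'/5' ratio was 1.70 to 2.18 in vehicle and 1.43 to 2.00 after D3T (exact two-sided permutation p = 0.114). No fit used the GAPDH ratio as a covariate. The part of RNA quality in the results cannot be told apart from the groups beyond the fit with the beta-actin ratio. Whole liver RNA was measured, so fewer cells of a type and less RNA per cell cannot be told apart. The summed signal of 9 hepatocyte markers, such as Alb and Ttr, was 143464 to 209983 in vehicle and 176671 to 239092 after D3T. In that list Fgb, a fibrinogen chain, fell 1.74-fold (limma adjusted p = 0.0126), and Hnf4a, a hepatocyte transcription factor, rose 1.41-fold (0.0477). The summed signals of 6 macrophage markers did not overlap, at 5326 to 6023 in vehicle and 4175 to 5169 after D3T, and neither did those of 3 blood markers, at 14749 to 20382 and 10167 to 14057. Within these lists C1qb fell and Cd14 rose among the macrophage markers, and 0 of the 3 blood markers passed (2 lower and 0 higher at an unadjusted p under 0.05 by limma). Lyve1, 1 of 4 endothelial markers tested, fell 1.74-fold (adjusted p = 0.0474), and Col3a1, 1 of 6 stellate and fibroblast markers tested, fell 1.86-fold (adjusted p = 0.0399), with 0 higher in both lists (at an unadjusted p under 0.05 by limma, 0 higher among the endothelial and 1 among the stellate and fibroblast markers). The unadjusted counts of these marker lists have no share of all genes beside them. The part of these cell types in the results was not tested.

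**Figure D1:**
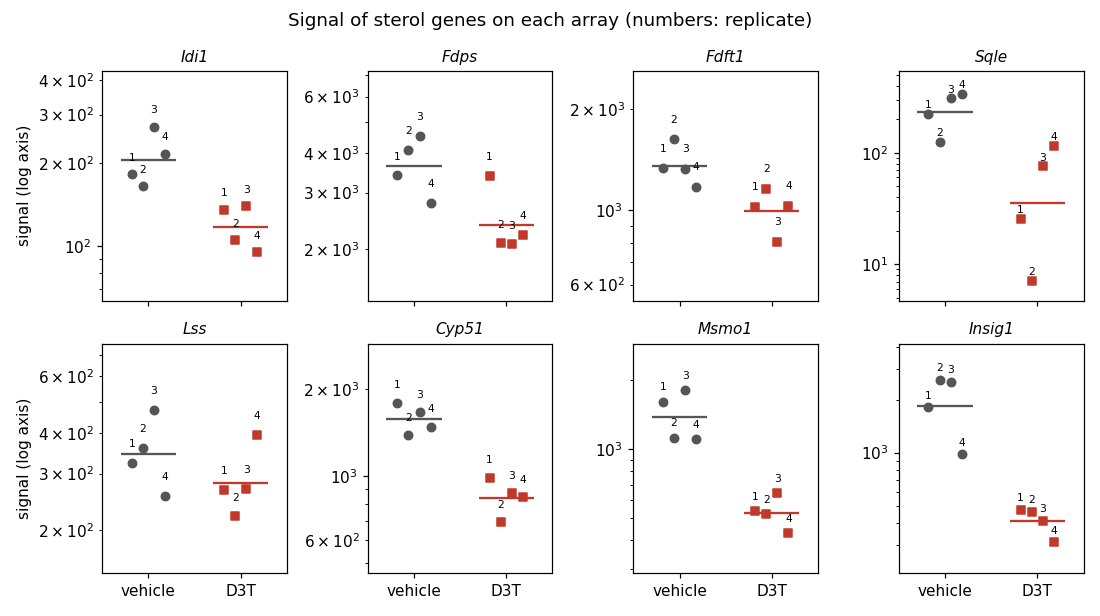
Deposited signal (log axis) of the brightest probe set of each gene on the 4 vehicle arrays (grey circles) and the 4 D3T arrays (red squares), with replicate numbers and a line at the geometric mean. The groups do not overlap for Idi1, Fdft1, Sqle, Cyp51, Msmo1 and Insig1, and they overlap for Fdps and Lss.

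Insig1, whose product restrains the pathway, was measured by 2 probe sets, and both fell. The brighter one (L13619_g_at) read 1803.9, 2597.1, 2532.0 and 976.2 on vehicle replicates 1 to 4 and 474.4, 462.1, 411.6 and 309.4 on D3T replicates 1 to 4. Vehicle replicate 4 was well below the other vehicle arrays and still above every D3T array. The signal went from 1977 ± 758.1 (SD, n = 4) to 414.4 ± 75.1, a 4.51-fold fall (log2 fold change -2.17 ± 0.29 SE, limma adjusted p = 0.00161). By log2 fold change it was 11th from the lowest of the 5244 probe sets. The other probe set of Insig1 read 1444.8, 3363.3, 2056.9 and 559.1 in vehicle and 547.6, 507.4, 396.8 and 508.3 after D3T. Its vehicle arrays spread widely, with vehicle replicate 4 just above the D3T range. It was 3.16-fold lower (adjusted p = 0.0343) and did not pass in 6 of 8 fits without 1 array, among them the fit without vehicle replicate 3 (adjusted p = 0.0981), nor with no filter on low signals (0.138) or no intensity trend in the variance (0.0717).

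Idi1 supplies the pathway with its reactive isoprene unit. Its brighter probe set (AF003835_at) read 181.8, 164.5, 270.6 and 216.3 in vehicle and 135.5, 105.0, 139.1 and 95 after D3T. The groups did not overlap, although only 164.5 and 139.1 parted them. The log2 fold change was -0.80 ± 0.24 (SE), with a 95% interval from -1.33 to -0.28, and did not pass (limma adjusted p = 0.0550). It passed in 1 of 8 fits without 1 array, that without vehicle replicate 2 (adjusted p = 0.0418). It also passed in 2 of 7 other settings, with quantile normalization (0.0485) and with a higher floor (0.0478). Elsewhere it did not pass, with adjusted p up to 0.153 without 1 array and 0.483 in the other settings. The second probe set of Idi1 lay under the floor of 20.3 on 7 of 8 arrays, the exception being vehicle replicate 4 at 40.3, and was not tested.

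Fdps, which makes farnesyl diphosphate for sterols and for protein prenylation, gave 3 probe sets of unequal change. The brightest (M89945mRNA_at) read 3397.5, 4074.7, 4514.7 and 2784.1 in vehicle and 3385.8, 2082.0, 2066.6 and 2215.1 after D3T. D3T replicate 1 lay within the vehicle range, and the other 3 D3T arrays lay below it. The log2 fold change of -0.61 ± 0.19 did not pass (limma adjusted p = 0.0688). Without D3T replicate 1 it was -0.78 and passed (0.0302), the only 1 of 8 fits without 1 array in which it did. A second probe set to the same sequence, M89945mRNA_g_at, fell 1.61-fold (adjusted p = 0.0312), from 2333 ± 424.5 (SD, n = 4) to 1457 ± 288.1, without overlap between the groups. It passed in 2 of 8 fits without 1 array, where its adjusted p reached 0.0914 without vehicle replicate 3, and did not pass with no filter (0.0917), no intensity trend (0.0714) or the replicate number as a block (0.0657). The dimmest, rc_AI180442_at, read 1014.7, 661.8, 1340.0 and 699.1 in vehicle and 407.1, 330.1, 327.6 and 232.3 after D3T. All 4 D3T arrays lay well below the lowest vehicle array, and the fall was 2.80-fold (log2 fold change -1.49 ± 0.25, adjusted p = 0.00602, passed in 8 of 8 fits without 1 array). The brightest and the dimmest differed by 0.88 in log2 fold change, with an exact two-sided permutation p of 0.0286, the smallest possible, and an adjusted p of 0.503 over the 22 pairs of probe sets of the same gene. No pair of the 22 passed, and at a smallest possible p of 0.0286 none could unless many pairs reached it together. The adjusted values therefore do not show whether probe sets of a gene differ.

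Fdft1, squalene synthase, takes the first step that leads to sterols alone, and none of its 4 probe sets passed. The brightest (M95591_at) read 1334.5, 1629.4, 1330.1 and 1175.2 in vehicle and 1025.9, 1159.8, 806.6 and 1030.8 after D3T. The groups did not overlap, but 1175.2 and 1159.8 nearly met. The log2 fold change was -0.45 ± 0.15 with a 95% interval from -0.78 to -0.12 (limma adjusted p = 0.0810). The other probe sets of Fdft1 had log2 fold changes of -0.52, -0.35 and -0.69, with adjusted p from 0.115 to 0.244. One of them, rc_H33426_g_at, passed in 1 of 8 fits without 1 array, that without vehicle replicate 4 (log2 fold change -0.95, adjusted p = 0.0308). That array read 123.9 and the other 3 vehicle arrays 240.4 to 268.7.

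Sqle, the epoxidase that commits squalene to ring closure, had 1 probe set, and it fell. D37920_at read 223.5, 125.1, 307.6 and 339.3 in vehicle and 25.6, 7.1, 75.6 and 115.2 after D3T. D3T replicate 4 came close to vehicle replicate 2, whereas D3T replicate 2 lay under the floor. The log2 fold change of -2.33 ± 0.56 was 9th from the lowest of all tested probe sets, with a wide 95% interval, from -3.57 to -1.10 (limma adjusted p = 0.0271). With a higher floor (40th percentile) the log2 fold change of Sqle was -1.58, still past the threshold. The fall of Sqle passed in 4 of 8 fits without 1 array, and not without D3T replicate 1 (adjusted p = 0.0693) or vehicle replicate 1 (0.0642), 3 (0.0815) or 4 (0.0746). Nor did it pass with no filter (0.105) or no intensity trend (0.0506).

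Lss, the cyclase that folds the product of Sqle into lanosterol, showed no change past the threshold. Its brightest probe set (D45252_s_at) read 322.7, 359.9, 472.8 and 256.3 in vehicle and 267.2, 220.9, 269.5 and 393.7 after D3T. The groups overlapped, with vehicle replicate 4 below 3 of the D3T arrays and D3T replicate 4 above 3 of the vehicle arrays. The log2 fold change was -0.29 with a 95% interval from -0.81 to 0.22 (limma adjusted p = 0.423). The lower end of that interval just reaches the difference of Idi1 (-0.80), which itself did not pass. A second probe set of Lss gave -0.59 (adjusted p = 0.291), and the third, too dim for the filter, averaged 39.6 ± 27.5 (SD, n = 4) in the vehicle rats and 32.4 ± 10.5 in the D3T rats.

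Cyp51, the lanosterol demethylase, fell on its 2 brightest probe sets of 5. U17697_s_at read 1791.0, 1380.0, 1660.5 and 1479.6 in vehicle and 986.9, 690.3, 871.1 and 842.9 after D3T. AB004096_at read 604.2, 450.8, 768.9 and 622.6 in vehicle and 340.6, 254.8, 368.1 and 298.1 after D3T. On both, every D3T array lay below every vehicle array, and D3T replicate 2 was the lowest. The first fell 1.87-fold (log2 fold change -0.90 ± 0.14, adjusted p = 0.00513 by limma) and the second 1.92-fold (adjusted p = 0.0139), and both passed in 8 of 8 fits without 1 array. The other 3 probe sets of Cyp51 overlapped between groups, with log2 fold changes of -0.48, -0.53 and -1.29 and adjusted p from 0.186 to 0.318. In one of these, rc_AA963449_s_at, D3T replicate 3 read 637.5, above every vehicle array, and the other 3 D3T arrays 212.2 to 256.9. Without that array it was lower (log2 fold change -0.89, adjusted p = 0.0459), the only 1 of 8 such fits in which it passed.

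Msmo1, the oxidase that removes sterol methyl groups after Cyp51, fell on both of its probe sets. The brighter (rc_AI172293_at) read 1610.2, 1121.0, 1800.3 and 1102.9 in vehicle and 534.8, 519.4, 641.2 and 431.0 after D3T. The dimmer (E12625cds_at) read 420.1, 636.1, 731.4 and 613.0 in vehicle and 226.6, 158.5, 297.4 and 286.2 after D3T. Neither pair of groups overlapped. The falls were 2.61-fold (log2 fold change -1.39 ± 0.19, adjusted p = 0.00210 by limma) and 2.50-fold (adjusted p = 0.00825), so the 2 probe sets of Msmo1 gave nearly the same size, and both passed in 8 of 8 fits without 1 array.

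**Figure D2:**
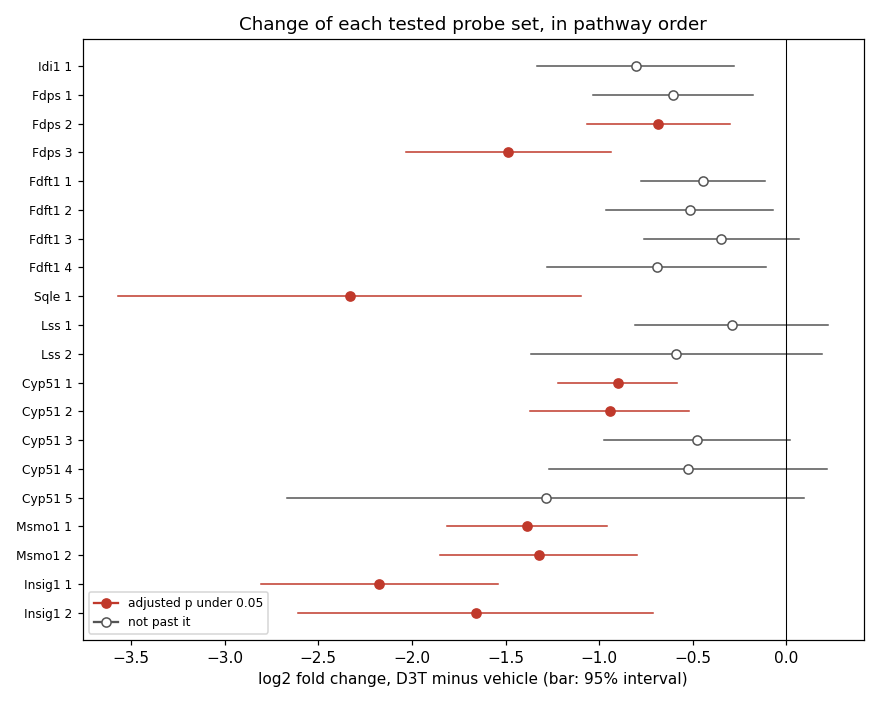
Log2 fold change (D3T minus vehicle) of the 20 tested probe sets with 95% intervals, in pathway order from Idi1 to Insig1 and numbered from the brightest to the dimmest within a gene; filled red points passed the threshold. All 20 points lie below 0, and the 9 that passed belong to Fdps, Sqle, Cyp51, Msmo1 and Insig1.

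The differences in the order of the brightest probe sets ran from Sqle at -2.33 and Insig1 at -2.17 through Msmo1 at -1.39, Cyp51 at -0.90, Idi1 at -0.80, Fdps at -0.61 and Fdft1 at -0.45 to Lss at -0.29. The 95% interval of Insig1 (-2.81 to -1.54) did not reach those of Cyp51 (-1.22 to -0.58), Idi1, Fdps (-1.04 to -0.18), Fdft1 or Lss, while it overlapped those of Msmo1 (-1.81 to -0.96) and Sqle. Intervals of neighbours in this order overlapped. Sqle and Insig1 changed places with the 40th percentile floor (-1.58 and -2.17), with log2 of signal plus 16 (-2.10 and -2.13), and without D3T replicate 1 (-2.06 and -2.25), D3T replicate 2 (-1.94 and -2.23) or vehicle replicate 4 (-2.16 and -2.48). Differences in change between genes were not tested.

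The genes also varied among rats of the same group. Vehicle replicate 3 was the highest vehicle array for 4 of the 8 genes and for 12 of the 20 probe sets. Vehicle replicate 4 was the lowest for 5 genes and 11 probe sets, although Sqle was highest there. After D3T, replicate 1 was the highest for 11 probe sets and the lowest for 0, and replicate 2 the lowest for 9. In vehicle the widest ranges were those of Sqle, whose highest array was 2.71 times its lowest, and Insig1 at 2.66 times, and the narrowest that of Cyp51 at 1.30 times. After D3T the range of Insig1 was 1.53 times, and none is given for Sqle, whose lowest array lay under the floor. Averaged over the 8 genes, the deviation from each gene's own mean was 0.34 to 0.87 on the log2 scale on the vehicle arrays and -0.78 to -0.46 on the D3T arrays, so every vehicle array lay above every D3T array.

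**Figure D3:**
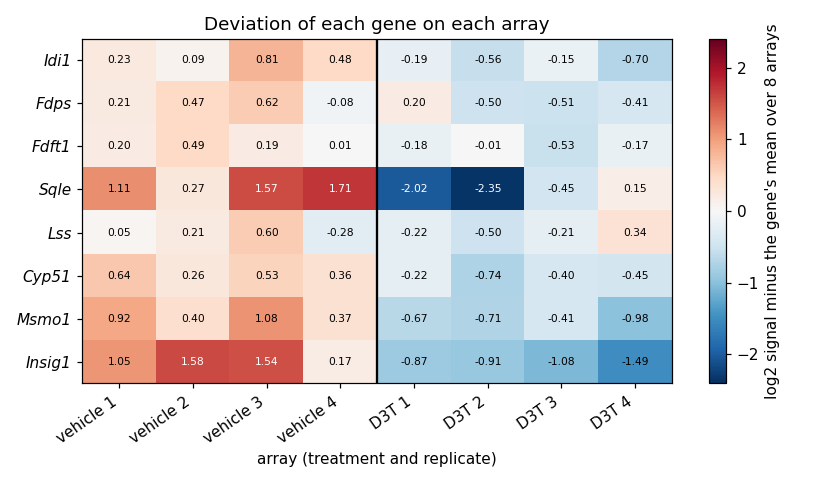
Log2 signal of each gene on each array minus that gene's mean over the 8 arrays (red above it, blue below it), with the vehicle arrays left of the line and the D3T arrays right of it. Cyp51, Msmo1 and Insig1 are above their means on all 4 vehicle arrays and below on all 4 D3T arrays, whereas Lss is below its mean on vehicle replicate 4 (-0.28) and above it on D3T replicate 4 (0.34).

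Among the other genes of the pathway, 2 of 7 tested fell and 0 rose (2 lower and 0 higher at an unadjusted p under 0.05 by limma), out of 16 listed, of which 9 were matched to a probe set. The median log2 fold change was -0.32, and 6 of the 7 were negative. Over all 3150 genes 5.84% were lower and 3.71% higher, 1517 were negative and the median was 0.03. No share of all genes at the unadjusted threshold is given here, so the unadjusted counts of this and the next lists have no background beside them. Nsdhl, a dehydrogenase that works beside Msmo1 on the same methyl groups, fell 2.01-fold, from 2314 ± 227.9 (SD, n = 4) to 1162 ± 228.9 (adjusted p = 0.00382), with D3T arrays from 892.0 to 1437.5 and vehicle arrays from 2060.1 to 2565.5. Ebp, a late sterol isomerase, fell 1.44-fold, from 1080 ± 80.5 to 756.3 ± 140.5, close to the threshold (adjusted p = 0.0494). Its call was lost with quantile normalization, no filter, no intensity trend and the replicate block, and in 7 of 8 fits without 1 array. Acat1, Acat2 and Dhcr7, the brightest that did not pass, had log2 fold changes of 0.39, -0.05 and -0.47. Mvk and Mvd, which act before Idi1, gave -0.32 (adjusted p = 0.361) and -0.06 (adjusted p = 0.900).

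The list named for sterol sensing, uptake and export showed 2 lower and 0 higher of 11 tested, out of 28 listed, with a median of -0.30. Over all 3150 genes 5.84% were lower and 3.71% higher. At an unadjusted p under 0.05 by limma 5 of the list were lower and 0 higher. The list also holds genes of wider lipid handling, among them the 2 that passed. Lipc, the hepatic lipase of lipoprotein remnants, fell 1.84-fold, from 4397 ± 297.6 to 2398 ± 334.7 (adjusted p = 0.00208). Dbi, which binds acyl-CoA, fell 1.78-fold, from 7121 ± 1026 to 4056 ± 966.6 (adjusted p = 0.0149). With no filter only 1 gene of this list passed. The brightest of this list that did not pass were Lcat at -0.46 (adjusted p = 0.0616), Cyp27a1 at 0.09 and Scp2 at -0.36. Srebf1, which encodes an SREBP, had a log2 fold change of 0.28 (adjusted p = 0.433). Nr1h3 and Nr1h2, the sterol-sensing LXR receptors, gave -0.36 and -0.30 without passing. The probe sets of the lipoprotein receptor Scarb1 disagreed, with 0.16 and 0.40 for 2 of them (neither past the threshold) and -0.53 for D89655_at (adjusted p = 0.0427), which passed in 2 of 8 fits without 1 array and was lost in 5 of 8 other settings.

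Isoprenoid branch genes, which serve protein prenylation and other uses of isoprenoids outside sterols, showed 0 lower and 0 higher of 4 tested, against 5.84% and 3.71% of all 3150 genes. At an unadjusted p under 0.05 by limma there were also 0, and the median was -0.19. The brightest were Rabggtb at -0.24, Fnta at -0.15 and Fntb at -0.23. In the list of fatty acid genes linked to SREBP1c, 1 of 8 tested was lower and 0 higher, against the same 5.84% and 3.71%, so its count lies near the share over all genes. At an unadjusted p under 0.05 by limma 1 was lower and 1 higher, and the median was -0.15. The gene that passed was Elovl5, an elongase of polyunsaturated fatty acids, at 1.74-fold lower (8051 ± 214.3 to 4701 ± 935.1, adjusted p = 0.00610). Scd, Acly and Fasn were the brightest that did not pass. Their log2 fold changes were -0.02, -0.64 and 0.38.

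**Figure D4:**
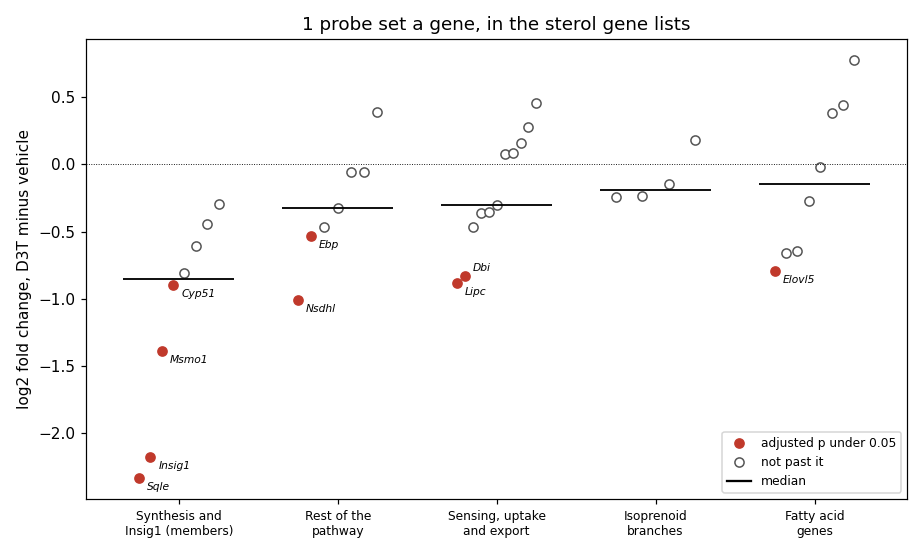
Log2 fold change (D3T minus vehicle) of each gene, by its brightest tested probe set, for the 8 genes described and the 4 other lists; filled red points passed the threshold, and black lines are medians. The medians are -0.85, -0.32, -0.30, -0.19 and -0.15 from left to right, and no red point lies above 0.

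Of 3112 other genes, those whose profile over the 8 arrays lay nearest to the mean profile of the 8 sterol genes were Tor1aip2, Csrp1, Papss2, Adipor2 and Mdfic. Likeness was the root mean square difference of log2 signals centred on each gene's mean, and it ran from 0.19 for Tor1aip2 to 0.21 for Mdfic. Among the 8 genes themselves it ran from 0.18 for Cyp51 to 0.99 for Sqle, each being part of the mean. Papss2, which makes the sulfate donor, went from 2977 ± 499.6 to 1166 ± 95.2. Adipor2, an adiponectin receptor, went from 1293 ± 208.7 to 686.4 ± 59.5. The measure takes in the difference between the groups, so any gene that fell by a similar amount scores as near.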

How the data were processed

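RNA of 8 rat livers was compared between 4 D3T and 4 vehicle arrays, grouped by the sample titles. The authors deposited a linear intensity for every probe set on every array, computed with MAS5, per the submitters' processing notes. The MAS5 version and scaling target were not given in the sources used here. The 2% trimmed means of the arrays, from 500.8 to 501.02, had been made nearly equal before deposit. Since intensities are not counts, it is the number of arrays that limits the precision, and each array is a separate rat per the labels.

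Arrays were first brought to a common 2% trimmed mean of 500. Signals below the 20th percentile (20.3) were set to it before conversion to log2. Without the 59 control probe sets, the 60% of the 8740 others with the highest mean log2 signal were tested with limma 3.58.1 in R 4.3.3 (lmFit, eBayes with an intensity trend), and p-values were Benjamini-Hochberg adjusted over all 5244. A fold change compares the geometric means of the floored signals. Signals printed are as deposited, with linear means and SDs. A gene was represented by its brightest tested probe set. Of the 8740, 7006 had 1 gene symbol in the platform annotation, 308 several and 1426 none, and none was named from several. All 8 member symbols were unchanged in RefSeq GRCr8. Names ending in _s_at or _g_at can mark sequence shared with other transcripts or probe sets.

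The members, gene lists and settings were chosen with earlier results of these data known. Named genes were all members, list genes past the threshold, the 3 brightest of each list that did not pass and the 5 nearest profiles outside the members and sterol lists. The rule allowed any other list gene, and Mvk, Mvd, Srebf1, Nr1h2, Nr1h3 and Scarb1 were picked after their values were seen. Alternatives were quantile normalization, log2 of signal plus 16, no filter, a 40th percentile floor, the brightest 30%, no intensity trend, the replicate number as a block, the beta-actin 3'/5' ratio as a covariate, other choices of probe sets and leaving out each array. The fit was tested on simulated data before use.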

Additional observations from a re-analysis of the deposited data

Results flagged for a closer look

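In 44 groups of 4 arrays (22 probe sets in both groups), 4 held an array far from the other 3. Chance flags about 1 in 20 of independent groups with normal scatter, and these 44 share arrays and genes, so that rate is only a guide. For the second probe set of Idi1, vehicle replicate 4 read 40.3 and the other vehicle arrays 2.2 to 5.1, all under the floor. With those 3 set to the floor, any array above it would be flagged. For the brightest probe set of Fdps, D3T replicate 1 read 3385.8 and the others 2066.6 to 2215.1. For an Fdft1 probe set (rc_H33426_g_at), vehicle replicate 4 read 123.9 and the others 240.4 to 268.7. For the dimmest probe set of Lss, vehicle replicate 2 read 80.8 and the others 25.3 to 26.9.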

How the results depend on the processing

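Over all tested probe sets, 340 were lower and 220 higher. They numbered 178 and 131 without the filter, 209 and 124 when the intensity trend was dropped, 191 and 99 with the replicate block, and 11 and 24 with the actin covariate. They ran from 140 to 380 lower and from 100 to 315 higher without 1 array. The replicate numbers pair no arrays by their labels, and deviations of same-numbered arrays correlated at -0.20 to 0.06, so the block result is given only as a value. With the replicate block 8 member probe sets were lower.

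Of the 20 member probe sets, 9 were lower in the reported fit, 6 to 9 without 1 array, 6 with no filter or no intensity trend, and 0 with the actin covariate. By the brightest probe set, 4 genes were lower, 2 to 5 without 1 array (2 without vehicle replicate 1 or 3), and 0 with the actin covariate. Without the probe sets named as sharing sequence, 6 member probe sets were lower, out of fewer than the 20. The share of all tested probe sets under that restriction is not given here. With the actin covariate the log2 fold changes were -2.85 for Sqle, -0.90 for Cyp51, -1.20 for Msmo1 and -2.22 for Insig1, none past the threshold, and Cyp51 rc_AA963449_s_at turned to 0.027 (adjusted p = 0.992); the cause was not tested. Sqle stayed at -2.33 without passing when the filter or the intensity trend was dropped, and ran from -2.77 to -1.94 without 1 array. Of 7 other settings with all arrays, Idi1 passed in 2, at -0.80 with the higher floor and -0.83 with quantile normalization. It ran from -0.91 to -0.67 without 1 array. Of 8 such settings, the brightest probe set of Fdps passed in 1, at -0.61 among the brightest 30% of probe sets. It ran from -0.78 to -0.50 without 1 array.

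For the rest of the pathway, 2 genes were lower, 1 with no filter, no intensity trend, quantile normalization or the replicate block, 0 with the actin covariate and 1 to 2 without 1 array. Of the sensing, uptake and export genes 2 were lower, 1 with no filter and 0 with the actin covariate, and of the fatty acid genes 1 was lower and 0 with it. The other 19 member probe sets kept a negative log2 fold change in each setting in which they were tested. An array signal near the floor carries no order, which limits Sqle after D3T.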
